A study of Homo sapiens with 2 samples.

Results

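The genes described here make the sphingolipids of lipid rafts: 10 genes of ceramide, glucosylceramide and sphingomyelin metabolism, of 19775 genes named on the arrays. They were chosen by name, and every probe set that the platform annotation assigned to 1 of them alone was taken, which gave 29 probe sets of 54613. RNA was compared between CL1-0 cells that carried a control vector and CL1-0 cells that carried an FDFT1 vector, with 1 Affymetrix array for each. CL1-0 is a human cell line derived from a lung adenocarcinoma; both cultures were stably transduced and selected with puromycin for 2 weeks, and neither the promoter of the vector nor the number of clones behind a culture is given in the sources used here. FDFT1 is squalene synthase, the enzyme that commits farnesyl pyrophosphate to sterols. No probe set was listed under its own name in the annotation used here, so the overexpression was not checked on these arrays.

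Sphingolipid synthesis starts in the endoplasmic reticulum, where serine palmitoyltransferase joins serine to palmitoyl-CoA. The product is reduced, acylated to dihydroceramide and desaturated to ceramide, which is then carried to the Golgi and given a glucose or a phosphocholine head group. Sphingomyelin and glycosphingolipids pack with cholesterol into ordered membrane patches, the lipid rafts, and work on squalene synthase in lung cancer has dealt with rafts. The comparison addressed whether transcripts of the sphingolipid partners of cholesterol differed when FDFT1 was expressed.

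Transcripts of the pathway gave signals above the floor of the scale on both arrays and differed little between them. All 10 genes had at least 1 probe set that reached the floor, a signal of 12.2, the median of all signals on both arrays; 22 of the 29 probe sets reached it and are called measured, beside 53.9% of all probe sets. No measured member differed by 2-fold in either direction, where 0.932% of the 29410 measured probe sets of the arrays were at least 2-fold higher with FDFT1 and 0.819% at least 2-fold lower. None differed by 1.5-fold either, against 5.72% higher and 4.71% lower over all measured probe sets. A count of 0 among 22 is near these background shares and does not set the members apart.

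Differences are given on the log2 scale as FDFT1 minus control, after the FDFT1 array was centred on the control array by its median shift of -0.11. Of the 22 measured members 11 lay above 0 and 11 below, with a median of 0.0022; over all measured probe sets 50.3% lay below 0 and the median was -0.0013. In size, 20 of the 22 (90.9%) differed by less than 0.5, as did 85.4% of all measured probe sets. With 1 array in a group there is no replicate spread and no test. The error given with a value is instead a probe-level error, computed over genes whose 2 brightest probe sets fell in 1 range of signal: the SD of their disagreement, divided by the square root of 2. It shrank with signal, from 0.51 where the mean log2 signal was under 5 to 0.31 between 5 and 7, 0.22 between 7 and 9, 0.16 between 9 and 11 and 0.10 beyond 11. Differences between cultures are not part of it. By this measure 9 of the 22 members lay further from 0 than 1 error and 1 lay further than 2 errors, where 33% and 6.95% of all measured probe sets did. In each range of signal the central 90% of all measured probe sets was also taken: 3 of the 22 members lay below it and 0 above, where 5.01% of all measured probe sets lay below and 5.01% above.

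**Figure D1:**
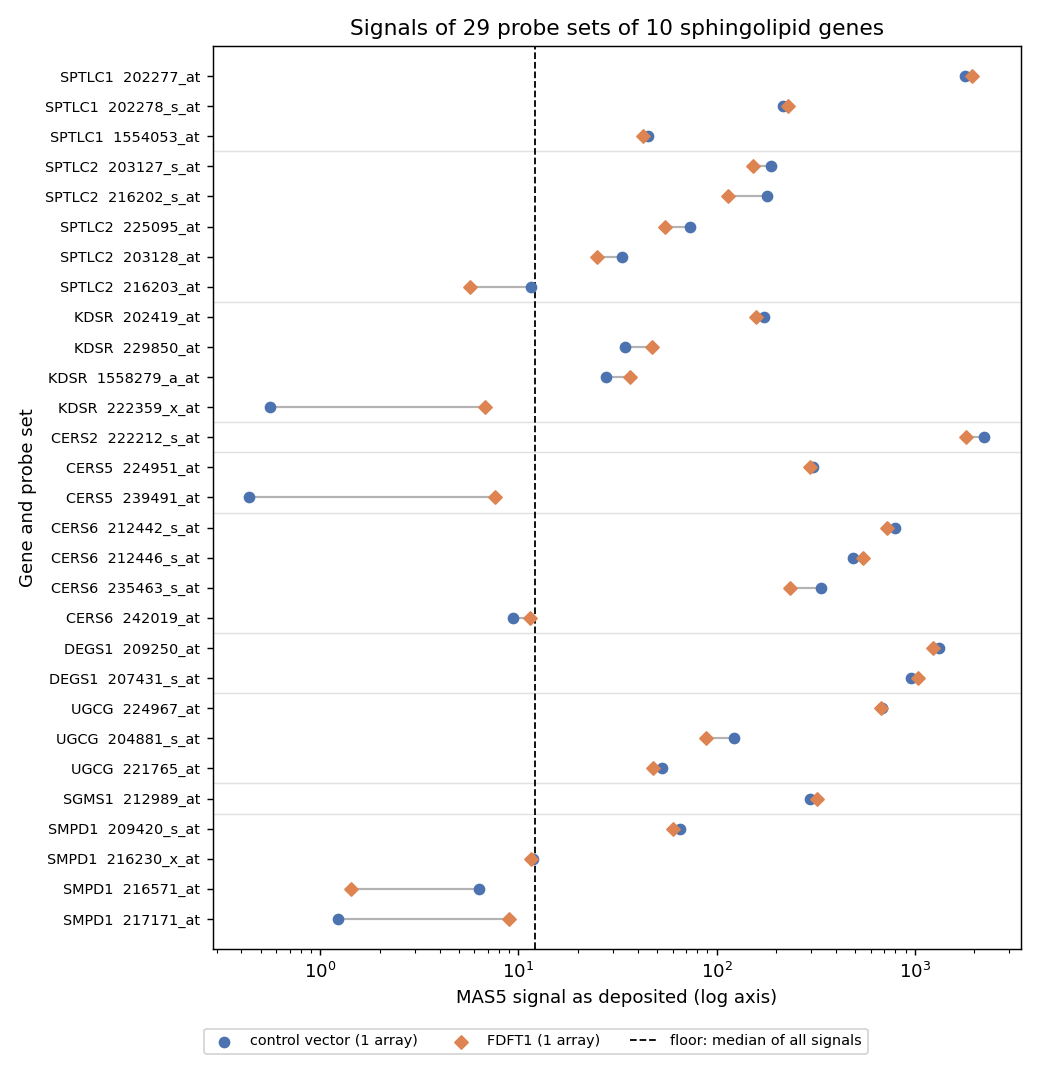
MAS5 signals as deposited (log axis) of the 29 probe sets, with the control vector array as circles, the FDFT1 array as diamonds, a grey line joining the pair, and the floor of 12.2 as a dashed line. The FDFT1 diamond lies left of the control circle for 4 of 4 measured SPTLC2 probe sets and for 15 of all 22 measured probe sets. The widest gaps, as for KDSR 222359_x_at and CERS5 239491_at, belong to probe sets under the floor.

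Serine palmitoyltransferase, the first and rate-limiting enzyme, is built from SPTLC1 and a catalytic partner, SPTLC2. Their probe sets lay on opposite sides of 0: after centring, 3 of 3 for SPTLC1 above (2 of 3 as deposited) and 4 of 4 measured for SPTLC2 below. Over all measured probe sets 50.3% lay below 0, and 9.91% of genes with 4 measured probe sets had all of them below. The share of genes with 3 measured probe sets all above 0 was not computed. In RNA from whole cultures, less RNA per cell and fewer cells that express a gene cannot be told apart. The upstream sequences of the pair are shown because these 2 subunits of 1 enzyme had readings on opposite sides of 0, a choice that rests on their values. Each run is the 250 bases before the gene's start in the RefSeq annotation of GRCh38.p14, on the minus strand, at chr9:92115414-92115663 for SPTLC1 and chr14:77616638-77616887 for SPTLC2. Capitals mark matches on either strand to the GC box (GGGCGG) and the CCAAT box (CCAAT).
SPTLC1: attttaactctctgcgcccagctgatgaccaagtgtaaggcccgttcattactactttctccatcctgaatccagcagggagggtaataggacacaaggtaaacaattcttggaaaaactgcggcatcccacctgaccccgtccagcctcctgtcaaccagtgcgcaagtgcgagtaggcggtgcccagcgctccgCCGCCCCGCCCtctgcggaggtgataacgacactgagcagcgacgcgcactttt
SPTLC2: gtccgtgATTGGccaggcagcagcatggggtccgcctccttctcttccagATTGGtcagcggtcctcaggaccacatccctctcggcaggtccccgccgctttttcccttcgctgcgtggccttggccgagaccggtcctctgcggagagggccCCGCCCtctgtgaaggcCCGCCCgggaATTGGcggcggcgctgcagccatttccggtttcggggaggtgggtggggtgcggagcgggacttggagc

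The SPTLC1 stretch held 2 GC boxes, which overlap, and no CCAAT box. The SPTLC2 stretch held 2 GC boxes and 3 CCAAT boxes. Over the 35116 upstream stretches of this length in the table, 42.6% held a GC box and 32% a CCAAT box. Neither stretch held a TATA box (TATAAA, 10.7% of all stretches), an E-box (CACGTG, 6.34%) or the sterol regulatory element TCACNCCAC (0.883%), where N is any base; this says only that these letters are not in these windows. The table had 10 upstream stretches for 9 of the members, with none matched for CERS2, and 9 of the 10 held a GC box, 2 a CCAAT box and 0 the sterol element. G and C made up 56.4% of the SPTLC1 stretch and 68.4% of the SPTLC2 stretch, with a median of 58% over all.

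SPTLC1 gave its strongest signal with probe set 202277_at, 1797 in control cells and 1956 in FDFT1 cells. The centred difference was 0.23 with an error of 0.16, or 1.17-fold higher with FDFT1. Probe set 202278_s_at read 217 and 229, a difference of 0.19 with an error of 0.22. The third, 1554053_at, read 45.3 and 42.7; its difference of 0.020 was above 0 only after centring. The first of these values lay inside the central 90% of all measured probe sets of like signal, which ran from -0.28 to 0.34.

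SPTLC2 was lower on the FDFT1 array with its 4 measured probe sets after centring. Centring raised every FDFT1 value by the same amount, so these probe sets were bound to be lower as deposited too. Probe set 216202_s_at lay furthest from 0, with signals of 180 and 114, a difference of -0.55 with an error of 0.22 (1.46-fold lower). It lay below the central 90% of probe sets of like signal, -0.41 to 0.41. The brightest SPTLC2 probe set, 203127_s_at, read 188 and 153, a difference of -0.19 with an error of 0.22. Probe set 225095_at read 73.5 and 55.1, at -0.31 with an error of 0.31, and 203128_at read 33.3 and 24.9, at -0.31 with an error of 0.51. These last 3 differences do not exceed their errors taken singly. Probe set 216203_at stayed under the floor at 11.5 and 5.71.

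The 4 measured SPTLC2 probe sets averaged -0.34. Of the 767 genes with 4 measured probe sets, 76 (9.91%) had all of them below 0, and 37 (4.82%) had an average as low as that of SPTLC2 or lower. The gap between the brightest probe sets of SPTLC1 and SPTLC2 does not depend on how the arrays are scaled by a constant: it was 0.41 with a combined error of 0.27. The share of gene pairs with a gap as wide was not computed.

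The enzyme is activated by the small subunit SPTSSA and restrained by the ORMDL proteins. Of 6 genes in this list 5 had a probe set of their own and 4 were measured, 2 above 0 and 2 below, with a median of -0.0010. SPTSSA was at 0.20 with its brightest probe set (740 to 792, error 0.16) and at 0.53 with 213508_at (50.1 to 67.2, error 0.31), each beyond its error and inside its central range. ORMDL2 was at 0.037, ORMDL1 at -0.039 and ORMDL3 at -0.074, all smaller than their errors. SPTSSB was not measured, with no signal over 1.05.

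**Figure D2:**
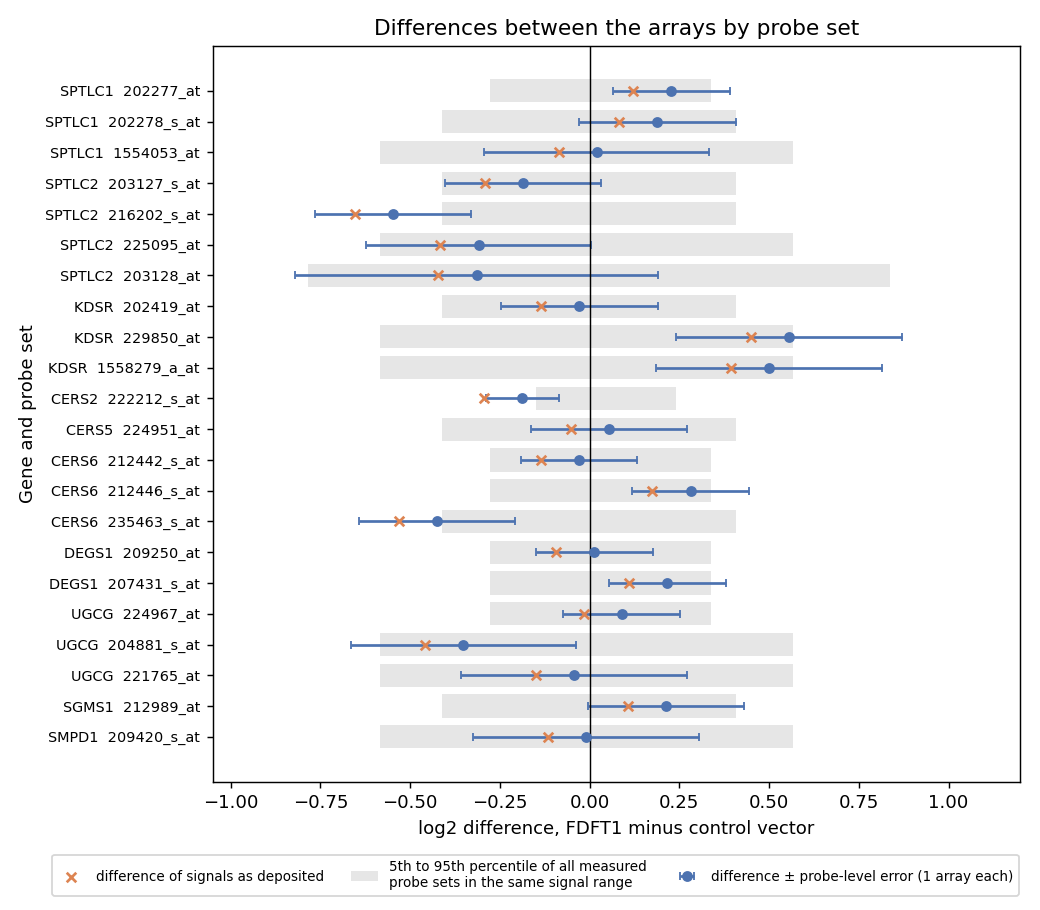
The log2 difference, FDFT1 minus control vector, of the 22 measured probe sets (circles, bars of 1 probe-level error), with the difference of the deposited signals as crosses and the 5th to 95th percentile of all measured probe sets in the same signal range as grey bars. The circles of SPTLC2 216202_s_at, CERS2 222212_s_at and CERS6 235463_s_at fall left of their grey bars and none falls right.

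KDSR, the reductase that turns the first product, 3-ketodihydrosphingosine, into dihydrosphingosine, gave probe sets that disagreed. The brightest, 202419_at, read 173 and 158, a difference of -0.028 with an error of 0.22. The dimmer 229850_at read 34.6 and 47.3 and 1558279_a_at 27.8 and 36.5, at 0.56 and 0.50, each with an error of 0.31. Both lay inside the central range for their signal, -0.58 to 0.57. The average over the 3 was 0.34, so the value for the gene turns on the choice of probe set. A range within the gene as wide as this one, 0.58, or wider was found in 35.8% of the 1736 genes with 3 measured probe sets. Probe set 222359_x_at was under the floor on both arrays, at 0.556 and 6.75.

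The ceramide synthases attach a fatty acid to dihydrosphingosine, and each prefers certain chain lengths. CERS2, which uses very long chains, was lower with FDFT1: its 1 probe set, 222212_s_at, read 2232 and 1822. The difference of -0.19 was small, 1.14-fold, but the error at this signal was 0.10, and the value lay below the central 90% of probe sets as bright, -0.15 to 0.24. Without centring it was -0.29. As the only CERS2 probe set it has no second reading to set beside it.

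CERS5 and CERS6 both favour palmitoyl-CoA and make ceramides of shorter chains. CERS5 was near 0, with 308 and 297 for 224951_at, a centred difference of 0.054 with an error of 0.22. Its other probe set, 239491_at, was under the floor at 0.438 and 7.61. CERS6 gave readings on both sides of 0. Probe set 212442_s_at, the brightest, read 797 and 725, at -0.030 with an error of 0.16, while 212446_s_at read 487 and 550, at 0.28 with an error of 0.16. In contrast 235463_s_at read 337 and 233, at -0.43 with an error of 0.22, below the central range of -0.41 to 0.41. The highest and lowest CERS6 readings differ by 0.71 with a combined error of 0.27, and 26.4% of genes with 3 measured probe sets had a range as wide or wider. Probe set 242019_at was under the floor, at 9.40 and 11.5. The differences of the brightest CERS5 and CERS6 probe sets exceeded the CERS2 difference by 0.24 (combined error 0.24) and 0.16 (combined error 0.19), within or about equal to the error.

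Of the other synthases in the lists, CERS4 was at 0.14 (35.3 to 36.1, error 0.31) and CERS3 stayed under the floor. FA2H, which hydroxylates the fatty acid of ceramide, was at 0.18 or more (8.21 to 12.9), as only its FDFT1 signal reached the floor. DEGS2, a second desaturase, was not measured.

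DEGS1, the desaturase that makes ceramide from dihydroceramide, was above 0 with both probe sets after centring. Probe set 209250_at read 1320 and 1238, at 0.014 with an error of 0.16, and 207431_s_at read 958 and 1034, at 0.22 with the same error. As deposited, the first was lower on the FDFT1 array and the second higher. The pair differs by 0.20, so DEGS1 has no direction that both readings share under every scaling.

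Ceramide then meets UGCG, which adds glucose, or SGMS1, which adds phosphocholine in the Golgi. For UGCG the brightest probe set, 224967_at, read 681 and 673, at 0.090 with an error of 0.16. Probe set 204881_s_at read 122 and 88.9, at -0.35 with an error of 0.31, and 221765_at read 53.1 and 47.9, at -0.044. The UGCG readings span 0.44 with a combined error of 0.35, and 52.1% of genes with 3 measured probe sets spanned as much or more. SGMS1 had 1 probe set, 212989_at, with 297 and 320, at 0.21 with an error of 0.22. The SGMS1 difference exceeded that of the brightest UGCG probe set by 0.12 with a combined error of 0.27.

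SMPD1, the acid sphingomyelinase of the lysosome, returns sphingomyelin to ceramide and was at -0.0094 with 209420_s_at (65.0 to 60.0, error 0.31). Its value was above 0, at 0.011 and 0.0025, after quantile and loess scaling. The other 3 SMPD1 probe sets were under the floor, with 11.8 and 11.6 for 216230_x_at, 6.34 and 1.42 for 216571_at and 1.23 and 9.01 for 217171_at. These readings near the bottom of the scale give no direction.

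**Figure D3:**
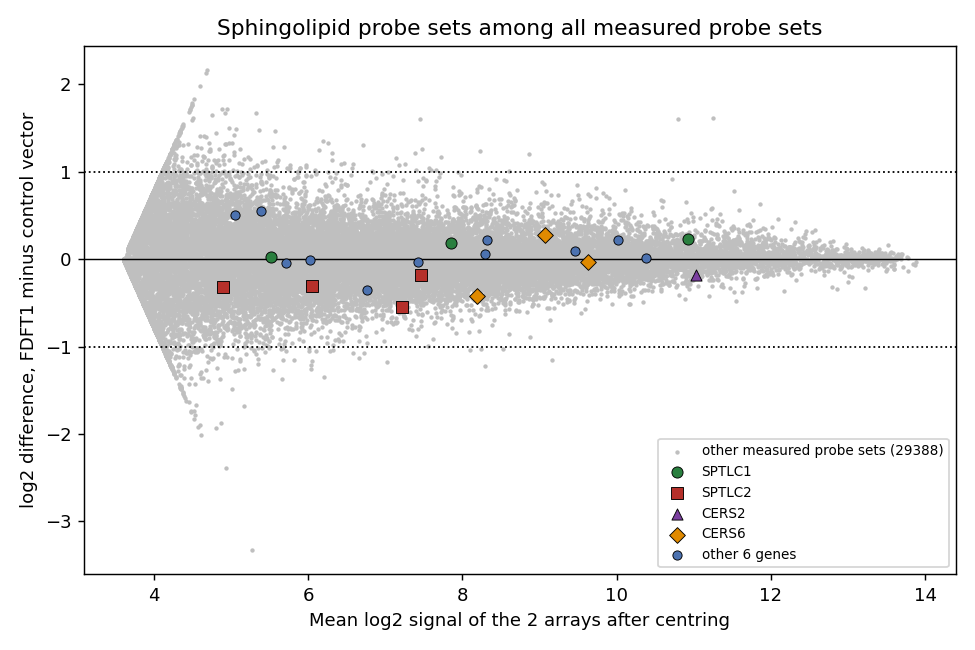
The log2 difference against the mean log2 signal after centring for the 22 members (large symbols) and the other 29388 measured probe sets (grey), with dotted lines at 2-fold. The members lie between -0.55 and 0.56, inside the dotted lines, while the grey cloud widens towards dim signals.

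By the brightest probe set of each gene, 5 members lay above 0 and 5 below, with a median of 0.0022 and a range from -0.19 for CERS2 to 0.23 for SPTLC1. Over all 12957 measured genes 50.8% lay below 0 and the median was -0.0048. Among the 6 members with more than 1 measured probe set, SPTLC1 and DEGS1 had all of them above 0, SPTLC2 had all below, and KDSR, CERS6 and UGCG had both signs. In the signals as deposited the median of all measured probe sets was -0.098, and 15 of the 22 members lay below 0. The 4 members whose sign came from centring were SPTLC1 1554053_at, CERS5 224951_at, DEGS1 209250_at and UGCG 224967_at.

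The rest of sphingolipid metabolism was read from 9 lists of 63 genes, of which 54 had a probe set of their own and 43 were measured. After centring 26 of these lay above 0 and 17 below, with a median of 0.047; as deposited, the counts were the reverse, 17 above and 26 below. By the brightest probe set 1 was at least 2-fold lower and 0 at least 2-fold higher, where the shares over all measured genes were 0.656% and 0.664%. In ceramide transport and sphingomyelin synthesis, SGMS2, the sphingomyelin synthase of the plasma membrane, was at 0.90 with 227038_at (126 to 218, error 0.22), or 1.86-fold higher, above the central range of -0.41 to 0.41 for its signal. It lay between 0.79 and 0.92 under every scaling and floor tried. The dimmer SGMS2 probe sets did not share this: 242963_at was at 0.23 (25.9 to 28.1) and 243141_at at -0.40 (21.0 to 14.8), each with an error of 0.51. In the same list of 5 measured genes, 4 above 0 (2 as deposited), SAMD8, a ceramide phosphoethanolamine synthase, was at 0.15 and CERT1, the ceramide transfer protein that feeds the Golgi, at -0.010.

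In glycosphingolipid synthesis, A4GALT, which makes globotriaosylceramide, was at -1.21 (30.5 to 12.3, error 0.51), 2.31-fold lower on its 1 probe set, and the FDFT1 signal lay just above the floor. The other measured genes of this list of 9 mostly lay above 0, 7 in all (6 as deposited), with a median of 0.16. B4GALT6, a lactosylceramide synthase that extends the product of UGCG, was at 0.50 (65.1 to 85.8, error 0.31), and UGT8, which adds galactose to ceramide, at 0.42 (29.2 to 36.4, error 0.31). B4GALNT1, which makes complex gangliosides, was at -0.031 with its brightest probe set and at 0.34 with 1555385_at (67.2 to 79.2, error 0.31). The second measured B4GALT6 probe set was below 0. B4GALT5, far brighter, was at 0.16 with 221485_at (1249 to 1293, error 0.16). Its other probe set, 221484_at, was at -0.28 (843 to 646), just below its central range.

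Genes that take glycosphingolipids apart, most of them lysosomal, lay mostly below 0. Of 9 measured genes 8 were below 0, with a median of -0.13, and the count was the same after quantile (-0.11) and loess (-0.11) scaling. It was also the same in the signals as deposited (median -0.24). There every value of the list is lower by the same constant, so genes below 0 had to stay below. NEU3, a ganglioside sialidase that acts at the plasma membrane, was at -0.32 (166 to 124, error 0.22) and GM2A, the GM2 activator protein, at -0.28 (585 to 448, error 0.16), where 2 of 6 GM2A probe sets were higher. The exception was ARSA, which removes sulfate from sulfatide, at 0.49 (31.9 to 41.6, error 0.31) with 2 of 2 probe sets higher. By the brightest probe set no gene of the list reached 2-fold. The dim HEXA probe set 215155_at was at 1.41 (15.3 to 37.8, error 0.51), above the central range of -0.78 to 0.84, while the brightest, 201765_s_at, was at -0.025 (302 to 276, error 0.22) and 243511_at at -0.10.

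The list of other sphingomyelinases was grouped by gene name, not by enzyme activity, and includes the SMPD-like genes SMPDL3A and SMPDL3B. It gave 3 measured genes above 0 and 0 below (median 0.099, 1 above as deposited). SMPDL3A was at 0.27 (error 0.31) and SMPD2 at 0.099. The ceramidases, which release sphingosine, were within their errors of 0, 2 above and 1 below after centring and 3 below as deposited, with ASAH1 at 0.072, ACER2 at 0.050 and ACER3 at -0.0021. Sphingosine 1-phosphate is made by sphingosine kinases and cleaved by SGPL1, the exit from the pathway; of the 4 measured genes 2 lay above 0 and 2 below (1 and 3 as deposited). SGPL1 was at -0.15 (error 0.22), SPHK1 at -0.044 and SGPP1, a phosphatase, at 0.028. SPNS2, the exporter, went from 3.16 to 14.3; with the control signal under the floor, its centred difference is 0.33 or more. Among 4 measured receptors, 3 of them above 0, S1PR2 was at 0.21, S1PR5 at 0.15 and S1PR4 at -0.59 or lower, with its FDFT1 signal under the floor (18.4 to 2.94). The S1PR5 value is that of its brightest probe set; the 2 dimmer ones were lower, 20.9 to 4.03 and 14.4 to 1.40, with FDFT1 signals under the floor, so that their differences are -0.78 and -0.24 or lower.

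**Figure D4:**
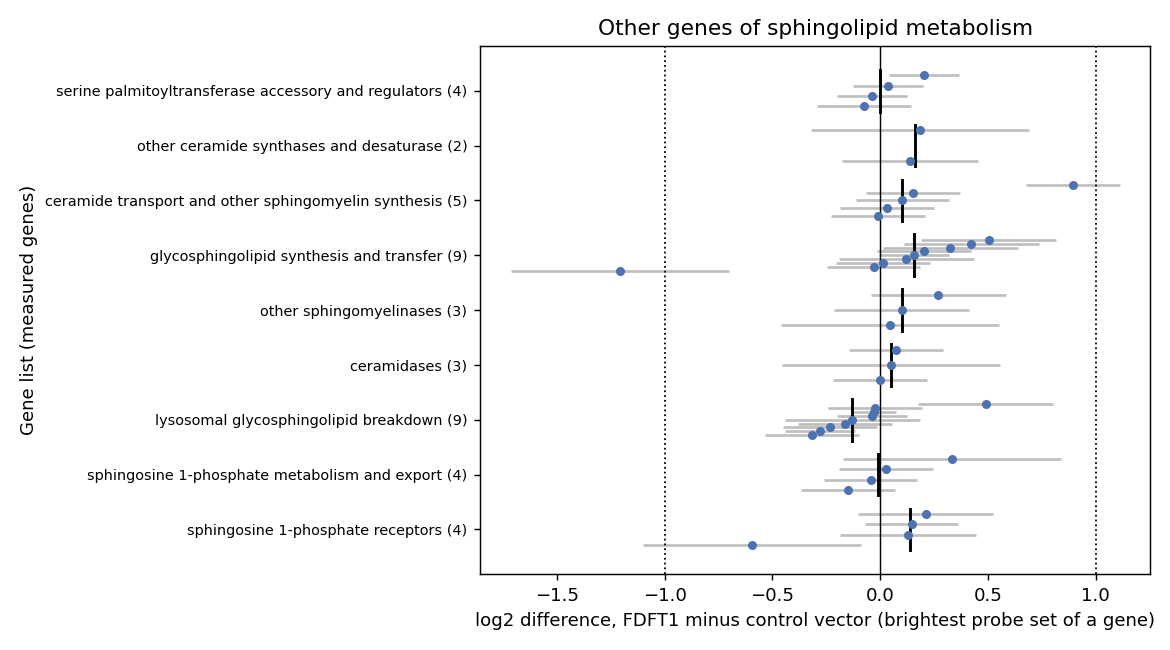
The log2 difference of the brightest measured probe set (circles, bars of 1 probe-level error) for the 43 measured genes of the other 9 lists, with the median of each list as a black stroke and dotted lines at 2-fold. A4GALT at -1.21 is the circle past the left dotted line, and SGMS2 at 0.90 is the circle furthest right; SPNS2, S1PR4 and FA2H, with 1 signal under the floor, are drawn at their bounds.

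Median signals of the arrays were 12.3 (control) and 12.1 (FDFT1), close to the floor, and the 75th percentiles were 104 and 95.4. Log2 signals of the measured probe sets correlated across probe sets with a Pearson r of 0.961. MAS5 scales each array as a whole, and no replicate pair exists to set beside this r. These values therefore do not show how alike the cultures were. The labels give a type II alveolar origin; of 12 alveolar type II markers 7 were measured, and SFTPD, NAPSA and SLC34A2 were under the floor. LPCAT1 (934 and 787) and ETV5 (383 and 281) were well above the floor, ABCA3 (79.9 and 55.6) and LAMP3 (53.0 and 58.8) less so, and SFTPB (32.0 and 35.3), SFTPC (29.3 and 16.9) and NKX2-1 (31.1 and 29.3) were nearest to it. The summed signal of the measured markers was 1543 (control) and 1263 (FDFT1), most of it from LPCAT1, so the sum says little about the other markers. Of 9 blood and immune markers 4 were measured (summed signal 79.7 and 86.4), of 7 fibroblast and endothelial markers 3 (98.7 and 118) and of 6 airway and squamous markers 1 (26.7 and 10.1). COL1A1 (65.5 and 83.0) and CD79A (50.5 and 40.6) were measured, above SFTPB, SFTPC and NKX2-1 on both arrays. PECAM1 (18.4 and 22.7), DCN (14.8 and 12.4) and HBB (13.2 and 18.3) were nearer to the floor. CD3E (10.3 and 13.3) and ITGAM (5.73 and 14.2) reached it on the FDFT1 array only. PTPRC, CD14, COL1A2, COL3A1, VWF and CDH5 were under the floor on both arrays. The part of other cells in the values above was not tested.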

How the data were processed

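RNA of 2 samples was measured, 1 Affymetrix array each, from 6 µg of total RNA per the labels' protocols. The authors deposited MAS5 signal intensities on a linear scale, per the submitters' processing notes; for the MAS5 version, the target of scaling and detection calls, no value is given in the sources used here. MAS5 subtracts mismatch signals and scales each array as a whole, so dim values are noisy. For arrays, their number limits the precision, and with 1 per group no p-value was computed.

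Steps computed here used Python 3.11.15, numpy 2.4.6, pandas 2.3.3 and statsmodels 0.14.6. The 62 control probe sets were left out. The FDFT1 signals were shifted by the median log2 difference (-0.11) of probe sets at or above the floor on both arrays, values under the floor of 12.2 were then set to it, and differences were taken on the log2 scale. A probe set was measured if its higher deposited signal reached the floor. Central ranges (90%) and probe-level errors used 5 ranges of mean log2 signal. The platform annotation gave 1 gene for 41091 probe sets, several for 1801 and none for 11721; 1 probe set that lists SPTLC1 with another gene was left out. Suffixes _s_at, _a_at and _x_at mark probe sets that can match more than 1 transcript.

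All probe sets of the members are given. Of each other list, genes at least 2-fold different and up to 2 highest and 2 lowest are named. Other probe sets of SGMS2, HEXA, SPTSSA, S1PR5, CERT1, B4GALNT1 and SGPL1, and the gene B4GALT5, were added after their values were seen. The members and lists were chosen with earlier results of these data known. Alternatives were the deposited scale, quantile and loess scaling, no floor, a floor at the 75th percentile (99.4), a 1.5-fold threshold, averaging the probe sets of a gene, and leaving out suffixed probe sets. The steps were tested on simulated data.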

Additional observations from a re-analysis of the deposited data

How the results depend on the processing

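No paired analysis was possible because each group holds 1 array. No replicate could be left out, and culture, array and vector cannot be told apart. Of 169 values of single member probe sets and genes recomputed under the alternatives, 165 moved by less than their probe-level error and 4 by more. The 4 were CERS2 in the signals as deposited (-0.29 for its 1 probe set, counted as probe set and as gene), and KDSR at 0.34 and UGCG at -0.10 with the mean of their probe sets, where both changed sign. Much of the count of 165 was fixed beforehand. The 32 values without a floor could not move, as no measured member had a signal under it. Leaving out centring moved each value by the same -0.11, smaller in size than every error but the 0.10 of the brightest range. Gene values under the scalings and floors repeat those of their brightest probe sets. The counts of members at least 2-fold different were 0 under all alternatives, also at 1.5-fold. Without centring, the median was -0.10 over member probe sets and over member genes and -0.059 over the other lists, and 152 probe sets of the arrays were at least 2-fold higher and 322 lower (67.9% of these lower), beside 274 and 241 after centring. Leaving out suffixed probe sets left 7 member genes with a median of 0.054. Without a floor, 1 gene of the other lists was at least 2-fold higher (SPNS2) and 2 lower (A4GALT and S1PR4), and 1294 probe sets of the arrays were higher and 1137 lower. With the floor at 99.4, 15 member probe sets were left, the other lists had a median of -0.0021 and 0 genes 2-fold lower, and the arrays had 16 probe sets higher and 5 lower, as fewer dim probe sets were counted. At 1.5-fold, 1 gene of the other lists was higher and 2 lower, and 1683 and 1385 probe sets of the arrays. Differences under 0.5 at mean log2 signals under 5 are within the error there.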
